A study of Mus musculus with 8 samples.

Results

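The 10 genes described here mark lung macrophages. Siglecf, Marco, Chil3, Fabp1, Pparg and Mrc1 mark the alveolar macrophage, and Trem2, Gpnmb, Spp1 and Ctsk mark the lipid-associated macrophage. They were chosen by name, with earlier results of these data known, from the 52636 Ensembl genes counted in each library, and all 10 were detected in all 8 libraries and passed the filter on low counts. In whole lung tissue the COPD mice model had higher levels of Gpnmb, Trem2, Ctsk and Chil3 and a lower level of Siglecf than control mice, with no overlap between the 4 libraries of each kind, and of these differences only that of Gpnmb passed the test across all genes (2.60-fold higher). Among all genes tested, 6.78% had no overlap between the libraries of COPD and control mice. With the diets averaged, 0.443% of all genes passed the test at a log2 fold change beyond 1. No member passed the test for the TJ-41 diet.

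The alveolar macrophage lives on the air side of the alveolus, where it takes up inhaled particles and clears surfactant lipid. It is kept in that state by GM-CSF made by the alveolar epithelium and by the nuclear receptor PPARγ, which controls its genes of lipid uptake and handling. The lipid-associated macrophage is a state that macrophages take on when they are loaded with lipid or cell debris, known from fat tissue, atheroma and fibrotic lung. Its receptor TREM2 binds lipids and apoptotic cells and signals through the adaptor encoded by Tyrobp, and its typical transcripts encode lysosomal, lipid-binding and matrix-degrading proteins.

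Lung RNA of male wild-type C57BL/6 mice was sequenced in 2 libraries for each of 4 groups. All mice were put on their diet at 8 weeks of age and received intratracheal instillations at 10 weeks and from 12 weeks. Control mice received PBS on each occasion, and the COPD mice model (COPD mice) was given PPE, the pancreatic elastase of the pig, which breaks down alveolar walls, and then lipopolysaccharide (LPS), a bacterial cell wall component. Each kind of mouse was fed either the control diet or the same diet with 2% TJ-41 (hochuekkito), a herbal extract of Japanese kampo medicine. The number of mice behind a library and the day and hour of RNA collection are not given in the sources used here, so the p-values measure the spread between libraries, whatever its source. Since whole lung was sequenced, fewer cells of a type and less RNA per cell cannot be told apart.

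The libraries held 18767295 to 20888042 reads assigned to genes. Levels are given as CPM, read counts scaled by library size and TMM factor, and 3 counts, taken as the floor of detection, corresponded to 0.153 to 0.162 CPM. The replicates of COPD mice fed the control diet lay farthest apart, with a standard deviation of the log2 difference between replicates of 0.798 over genes, against 0.394 to 0.469 in the other groups. A gene was called when its adjusted p was under 0.05 and its log2 fold change was beyond 1. Replicate 2 of control mice fed the control diet held albumin (Alb) at 30.0 CPM, against at most 1.04 CPM elsewhere.

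The promoters of the 6 members with the largest average differences between COPD and control mice are shown so that the sequence upstream of the genes that differed most can be read. Each line gives the 250 bases before the transcription start in RefSeq's annotation of GRCm38.p6, read 5′ to 3′ on the strand of the gene. Capitals mark matches, on either strand, to GAGGAA (the core bound by PU.1, the product of Spi1), to AGGTCA (the element of nuclear receptors such as PPARγ), to TGANTCA (AP-1) and to TCANNTGA (MiT/TFE factors, which control lysosomal genes).
Gpnmb, chr6:49036268-49036517, plus strand: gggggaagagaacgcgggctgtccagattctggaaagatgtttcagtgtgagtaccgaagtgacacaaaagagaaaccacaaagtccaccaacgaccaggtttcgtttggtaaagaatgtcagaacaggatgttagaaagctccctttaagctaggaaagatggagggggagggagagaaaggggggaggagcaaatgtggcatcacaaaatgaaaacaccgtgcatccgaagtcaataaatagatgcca
Trem2, chr17:48346151-48346400, plus strand: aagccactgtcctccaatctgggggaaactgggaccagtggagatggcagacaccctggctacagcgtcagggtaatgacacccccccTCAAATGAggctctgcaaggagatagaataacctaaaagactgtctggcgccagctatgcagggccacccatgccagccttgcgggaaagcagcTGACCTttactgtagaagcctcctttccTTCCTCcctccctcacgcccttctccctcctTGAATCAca
Ctsk, chr3:95498960-95499209, plus strand: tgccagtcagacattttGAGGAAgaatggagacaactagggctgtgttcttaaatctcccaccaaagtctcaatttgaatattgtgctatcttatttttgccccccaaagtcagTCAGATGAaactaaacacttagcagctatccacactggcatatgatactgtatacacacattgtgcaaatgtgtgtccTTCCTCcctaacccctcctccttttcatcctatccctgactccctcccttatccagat
Chil3, chr3:106167565-106167814, minus strand: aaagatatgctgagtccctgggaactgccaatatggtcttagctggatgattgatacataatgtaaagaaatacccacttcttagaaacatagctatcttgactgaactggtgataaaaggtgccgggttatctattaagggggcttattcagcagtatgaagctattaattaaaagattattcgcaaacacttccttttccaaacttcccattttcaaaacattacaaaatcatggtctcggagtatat
Siglecf, chr7:43351091-43351340, plus strand: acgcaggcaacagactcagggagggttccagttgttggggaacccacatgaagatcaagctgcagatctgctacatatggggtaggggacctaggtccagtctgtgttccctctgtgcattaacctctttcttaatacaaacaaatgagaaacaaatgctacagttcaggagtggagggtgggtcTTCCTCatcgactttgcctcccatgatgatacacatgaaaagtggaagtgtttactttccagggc
Fabp1, chr6:71199629-71199878, plus strand: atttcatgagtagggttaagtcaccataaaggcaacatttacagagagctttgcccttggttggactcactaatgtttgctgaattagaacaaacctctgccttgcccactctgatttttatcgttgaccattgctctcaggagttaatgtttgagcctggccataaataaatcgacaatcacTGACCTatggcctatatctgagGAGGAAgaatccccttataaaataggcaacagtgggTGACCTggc
The letters GAGGAA stood in the 250 bases before the start of 8 of the 13 RefSeq promoters of the members, against 23.3% of all 32851 promoters of the same length. AGGTCA stood in 4 of the 13 and in 14.0% of all, TGANTCA in 1 and in 6.75%, and TCANNTGA in 2 and in 7.09%. The clock element CACGTG stood in none of the 13, against 6.02% of all promoters. No match overlapped another. Trem2 was the member whose window held 4 different elements, and the windows of Gpnmb and Chil3 held none of those searched. These matches describe the letters in a short window and were searched after the values of the genes were known.

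**Figure D1:**
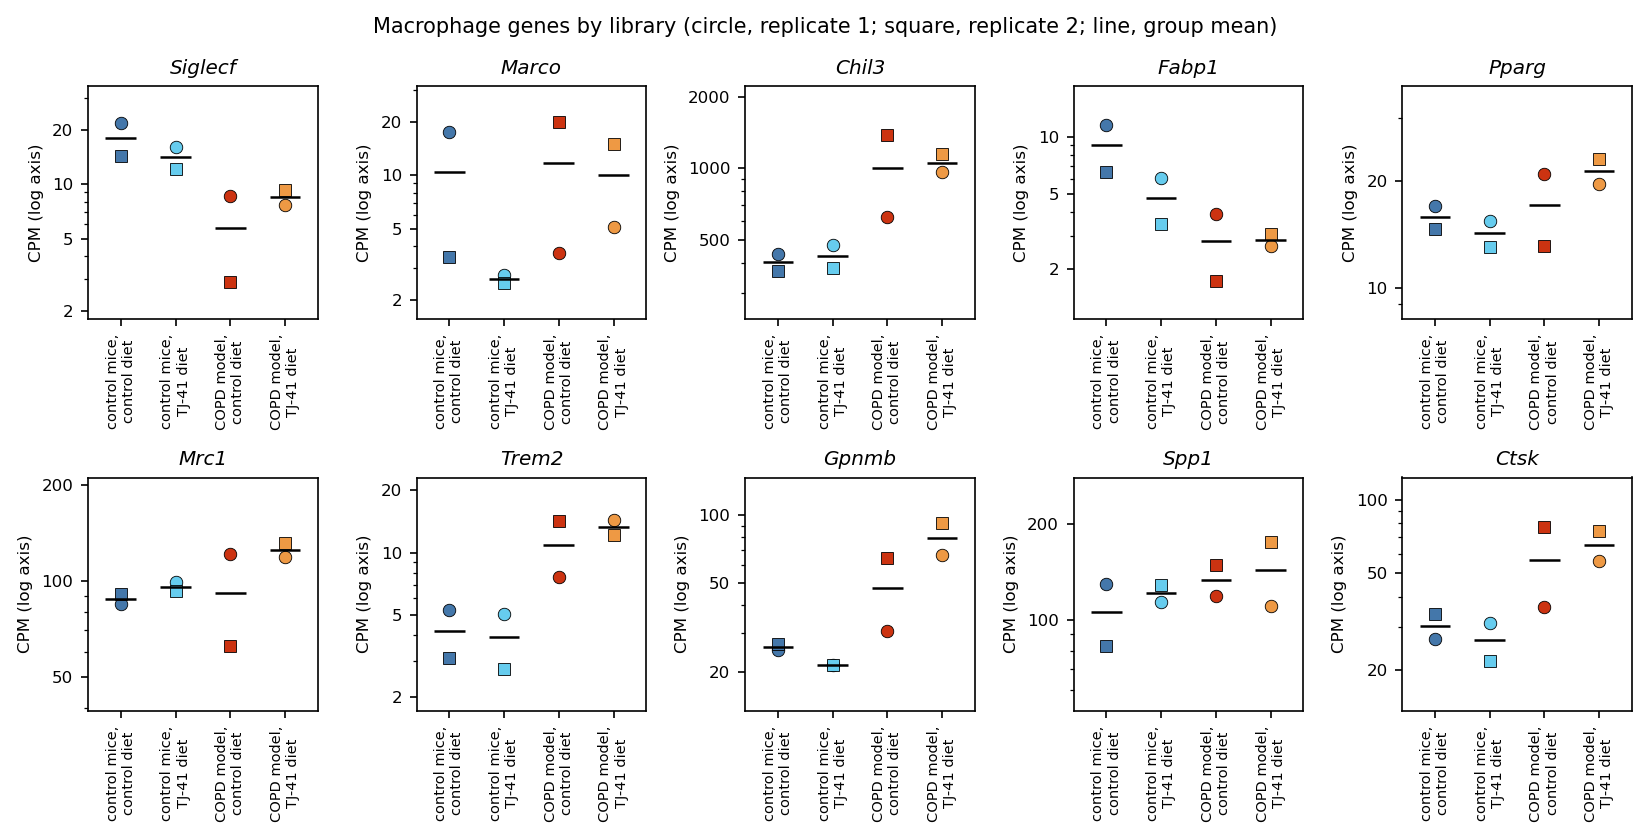
Level of each of the 10 genes in each of the 8 libraries, in CPM on a log axis that differs between panels, with a circle for replicate 1, a square for replicate 2 and a line at the group mean. All COPD mice libraries lie above all control mice libraries for Chil3, Trem2, Gpnmb and Ctsk, and below them for Siglecf.

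Gpnmb encodes a membrane glycoprotein of lysosomes that macrophages make in large amounts when loaded with lipid (ENSMUSG00000029816, chr6:49036546-49070929, plus strand, GRCm38). Its level in replicates 1 and 2 was 25.2 and 26.6 CPM in control mice fed the control diet, 21.5 and 21.6 CPM in control mice fed TJ-41, 30.7 and 64.3 CPM in COPD mice fed the control diet, and 66.4 and 92.3 CPM in COPD mice fed TJ-41. The lowest library of COPD mice thus lay just above the highest of control mice, and the TJ-41-fed COPD mice held the highest values of all. With the diets averaged, Gpnmb rose 2.60-fold in COPD mice, with a log2 fold change of 1.38 ± 0.22 (SE, 4 against 4 libraries), and was the one member called (adjusted p = 0.0381 from the quasi-likelihood test of edgeR). Of all 20546 genes tested, 0.443% were called in this comparison, 0.341% as higher. The call was lost when any library of control mice or either TJ-41-fed COPD library was left out, with log2 fold changes of 1.25 to 1.49 and adjusted p of 0.0768 to 0.258 in the same edgeR test.

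Trem2, the lipid receptor that marks these cells (ENSMUSG00000023992, chr17:48346401-48354147, plus strand), was the least abundant member of the lipid-associated group. It stood at 5.28 and 3.11 CPM in control mice fed the control diet and at 5.07 and 2.75 CPM in those fed TJ-41. In COPD mice it stood at 7.60 and 14.2 CPM on the control diet and at 14.4 and 12.2 CPM on the TJ-41 diet. The groups did not overlap, and the log2 fold change with the diets averaged was 1.57 ± 0.29 (SE), the largest among the members, but the adjusted p was 0.0626 (the quasi-likelihood test of edgeR). The counts behind these levels ran from 51 to 278 reads.

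Ctsk encodes cathepsin K, a lysosomal protease that degrades collagen and elastin (ENSMUSG00000028111, chr3:95499256-95509362, plus strand). Control mice had 26.9 and 33.9 CPM on the control diet and 31.3 and 21.7 CPM on the TJ-41 diet, and COPD mice had 36.1 and 77.2 CPM on the control diet and 55.9 and 74.5 CPM on the TJ-41 diet. Again the COPD libraries all lay above those of control mice, with replicate 1 on the control diet only slightly so. The log2 fold change with the diets averaged was 1.10 ± 0.24 (SE), with an adjusted p of 0.118 in the quasi-likelihood test of edgeR.

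Spp1, which encodes the secreted matrix protein osteopontin (ENSMUSG00000029304, chr5:104435118-104441050, plus strand), showed no such separation. Its level was 129 and 82.7 CPM in control mice fed the control diet, 114 and 129 CPM in control mice fed TJ-41, 119 and 148 CPM in COPD mice fed the control diet, and 111 and 175 CPM in COPD mice fed TJ-41. The log2 fold change was 0.28 ± 0.19 (SE), with an adjusted p of 0.631 in the same test of edgeR. Of the 50-base words of its exons, 11.6% also occur in the overlapping gene Gm42793, which held at most 0.594 CPM in any library.

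The alveolar macrophage members went in different directions. Siglecf encodes the sialic acid receptor used to identify mouse alveolar macrophages (ENSMUSG00000039013, chr7:43351341-43359531, plus strand). It stood at 21.7 and 14.4 CPM in control mice fed the control diet, 16.0 and 12.2 CPM in those fed TJ-41, 8.65 and 2.87 CPM in COPD mice fed the control diet, and 7.71 and 9.24 CPM in COPD mice fed TJ-41. No COPD library reached the lowest value of control mice. The log2 fold change with the diets averaged was -1.19 ± 0.31 (SE), which corresponds to a 2.28-fold lower level, and the adjusted p was 0.188 (the quasi-likelihood test of edgeR). Eosinophils carry Siglecf too, and of the 4 eosinophil genes listed Epx was at or under 0.104 CPM in every library, while the summed level of the 4 was 3.19 to 5.27 CPM in control mice and 4.39 to 12.3 CPM in COPD mice.

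Fabp1, a fatty acid-binding protein made by mouse alveolar macrophages and by liver and gut (ENSMUSG00000054422, chr6:71199827-71205023, plus strand), followed Siglecf closely. Its level was 11.5 and 6.48 CPM in control mice fed the control diet and 6.04 and 3.46 CPM in those fed TJ-41, against 3.91 and 1.74 CPM in COPD mice fed the control diet and 2.66 and 3.06 CPM on the TJ-41 diet. The kinds of mice overlapped by 1 pair of libraries, 3.46 CPM in control mice and 3.91 CPM in COPD mice. The log2 fold change was -1.20 ± 0.32 (SE, adjusted p = 0.196 from the quasi-likelihood test of edgeR). The control library with albumin at 30.0 CPM had less Fabp1 (6.48 CPM) than the other replicate of its group (11.5 CPM), in which albumin stood at 0.627 CPM.

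Chil3 encodes Ym1, a secreted chitinase-like protein of alveolar and alternatively activated macrophages (ENSMUSG00000040809, chr3:106147554-106167564, minus strand), and was the most abundant member. It stood at 436 and 371 CPM in control mice fed the control diet, 475 and 382 CPM in those fed TJ-41, 624 and 1385 CPM in COPD mice fed the control diet, and 961 and 1151 CPM in COPD mice fed TJ-41. The lowest COPD library was above the highest control library. The log2 fold change was 1.31 ± 0.24 (SE), with an adjusted p of 0.0586 in the quasi-likelihood test of edgeR. Its counts are uncertain to the extent that reads were split between copies, since 26.9% of the 50-base words of its exons also occur in Chil4 or Gm6522. Those copies held far fewer reads, at 5.18 to 7.32 CPM (Chil4) and 2.43 to 3.38 CPM (Gm6522) in control mice and 9.64 to 16.8 CPM and 4.11 to 14.1 CPM in COPD mice. Chil4 was itself called with the diets averaged, at a log2 fold change of 1.22 ± 0.21 (SE, adjusted p = 0.0484 from the same test of edgeR). Gm6522 was at 1.49 ± 0.36 (SE, adjusted p = 0.144 from that test).

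Marco, a scavenger receptor for bacteria and dust (ENSMUSG00000026390, chr1:120474538-120505024, minus strand), was the most variable member between replicates. In control mice it stood at 17.5 and 3.47 CPM on the control diet and at 2.76 and 2.48 CPM on the TJ-41 diet, and in COPD mice at 3.65 and 19.8 CPM on the control diet and at 5.11 and 14.9 CPM on the TJ-41 diet. Single libraries in 3 of the 4 groups were high, and the ratio of the higher to the lower replicate reached 5.44. The log2 fold change of 1.05 ± 0.62 (SE) did not pass the test (adjusted p = 0.596, the quasi-likelihood test of edgeR).

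Pparg, the receptor that sets alveolar macrophage identity and is also made by fat cells (ENSMUSG00000000440, chr6:115360951-115490399, plus strand), varied little. It stood at 16.98 and 14.62 CPM in control mice fed the control diet, 15.5 and 13.1 CPM on the TJ-41 diet, 20.99 and 13.16 CPM in COPD mice fed the control diet, and 19.6 and 23.1 CPM on the TJ-41 diet. Mrc1, the mannose receptor CD206 of alveolar and interstitial macrophages (ENSMUSG00000026712, chr2:14229392-14332057, plus strand), stood at 84.5 and 91.1 CPM in control mice fed the control diet, 99.4 and 92.7 CPM on the TJ-41 diet, 121 and 62.7 CPM in COPD mice fed the control diet, and 119 and 132 CPM on the TJ-41 diet. For both genes the COPD libraries overlapped those of control mice, and replicate 2 of COPD mice fed the control diet was the lowest of them. Their log2 fold changes were 0.35 ± 0.18 (SE) for Pparg and 0.22 ± 0.19 (SE) for Mrc1, with adjusted p of 0.545 and 0.690 in the quasi-likelihood test of edgeR.

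Set against the whole transcriptome, the libraries of the 2 kinds of mice did not overlap in 5 of the 10 members, 4 higher and 1 lower in COPD mice, where 6.78% of all genes tested separated in this way, 3.35% upward and 3.43% downward. An unadjusted p under 0.05 was reached by 6 members, 4 higher and 2 lower, against 10.4% of all genes. The median log2 fold change was 1.24 over the 4 lipid-associated members and 0.29 over the 6 alveolar members, beside -0.0017 over all genes tested. The 3 lipid-associated members other than Spp1 and the alveolar member Chil3 had log2 fold changes between 1.10 and 1.57.

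Levels can be compared between genes only per length of transcript, and per kilobase of annotated exon Chil3 led, with a mean over the 8 libraries of 443 CPM per kb. Spp1 (76.4 CPM per kb), Ctsk (29.5 CPM per kb) and Mrc1 (15.7 CPM per kb) followed. The others ran from Fabp1 at 8.79 CPM per kb through Gpnmb (6.69), Pparg (5.80), Marco (4.53) and Siglecf (4.15) to Trem2 at 1.63 CPM per kb. The order of these 6 differed between the kinds of mice. In control mice it was Fabp1 (12.4 CPM per kb), Siglecf (5.75), Pparg (5.09), Gpnmb (3.65), Marco (3.41) and Trem2 (0.819), and in COPD mice Gpnmb (9.74 CPM per kb), Pparg (6.51), Marco (5.65), Fabp1 (5.14), Siglecf (2.55) and Trem2 (2.45). The exon lengths are unions over all annotated transcripts, so a gene with long rare transcripts appears lower than it is.

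**Figure D2:**
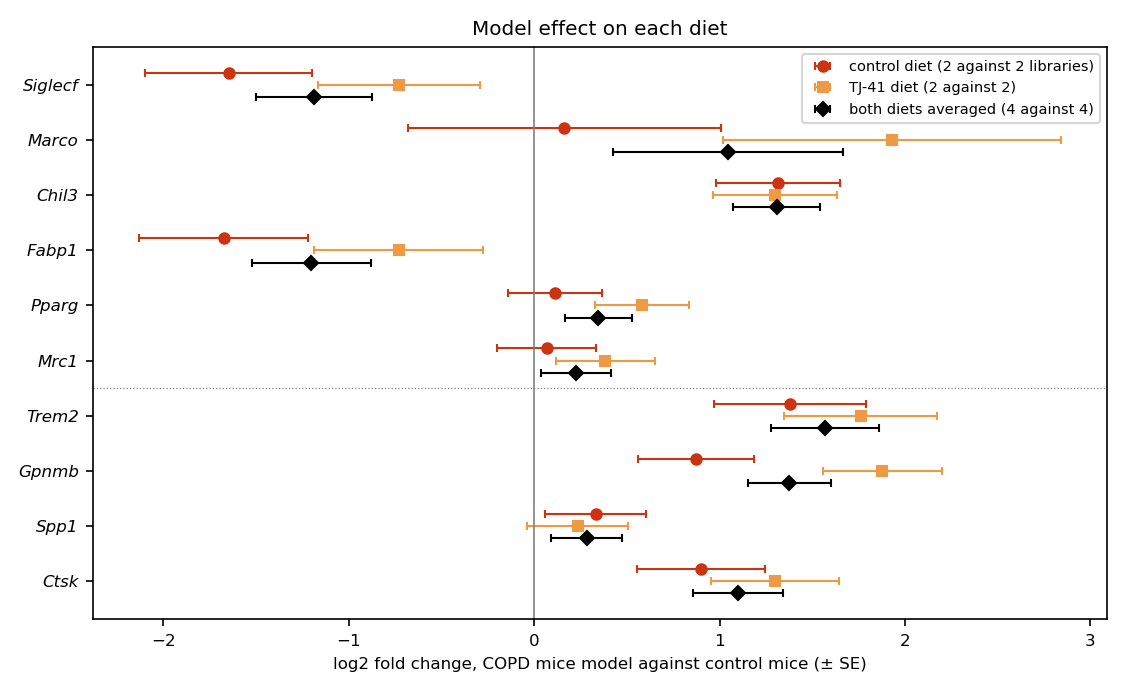
Log2 fold change of each gene, COPD against control mice, with bars for the standard error, on the control diet (circles, 2 against 2 libraries), on the TJ-41 diet (squares, 2 against 2) and with the diets averaged (diamonds, 4 against 4). Siglecf and Fabp1 lie left of 0 and Chil3, Trem2, Gpnmb and Ctsk right of 0 on each diet, with Gpnmb at 0.87 on the control diet and 1.88 on the TJ-41 diet.

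The comparison of COPD mice with control mice could be made once on each diet, with no library shared between the 2 comparisons. On the control diet the log2 fold changes were -1.65 ± 0.45 (SE) for Siglecf, -1.67 ± 0.46 for Fabp1, 1.32 ± 0.33 for Chil3, 1.38 ± 0.41 for Trem2, 0.87 ± 0.31 for Gpnmb and 0.90 ± 0.34 for Ctsk. On the TJ-41 diet they were -0.73 ± 0.44 (SE) for Siglecf, -0.73 ± 0.46 for Fabp1, 1.30 ± 0.33 for Chil3, 1.76 ± 0.41 for Trem2, 1.88 ± 0.32 for Gpnmb and 1.30 ± 0.35 for Ctsk. The direction of each of these 6 genes was thus the same on the 2 diets. Marco, Pparg, Mrc1 and Spp1 were also positive on each diet, with standard errors larger than the value on the control diet for Marco, Pparg and Mrc1.

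With 2 libraries a group, the quasi-likelihood test of edgeR called 0 of the 10 members on the control diet, where 0.122% of all genes were called, and 0 on the TJ-41 diet, where 0.0779% were. At an unadjusted p under 0.05 there were 6 members on the control diet, against 7.7% of all genes, and 5 on the TJ-41 diet, against 6.56%. DESeq2 called Siglecf, Chil3 and Fabp1 on the control diet and Chil3, Trem2, Gpnmb and Ctsk on the TJ-41 diet, and edgeR's exact test called Siglecf and Chil3 on the control diet and Chil3, Trem2 and Gpnmb on the TJ-41 diet. Over all genes DESeq2 called 0.847% on the control diet and 0.608% on the TJ-41 diet, and the exact test 1.02% and 0.667%. The libraries of the groups did not overlap for 6 of the 10 members on the control diet, against 27.6% of all genes, and for 9 of the 10 on the TJ-41 diet, against 56.5%.

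The 2 replicates of COPD mice fed the control diet differed more than those of any other group in 9 of the 10 members, with Spp1 as the exception. Replicate 2 held 3.01 times less Siglecf, 2.24 times less Fabp1, 1.93 times less Mrc1 and 1.59 times less Pparg than replicate 1, and 2.22 times more Chil3, 2.10 times more Gpnmb, 2.14 times more Ctsk, 1.87 times more Trem2 and 5.44 times more Marco. Without replicate 1 of this group, the quasi-likelihood test of edgeR called 6 members with the diets averaged (Siglecf, Chil3, Fabp1, Trem2, Gpnmb and Ctsk) and the same 6 on the control diet. In that fit 4.08% and 6.28% of all genes were called in these 2 comparisons, and the group was left with 1 library, which is assumed to vary like the libraries of the other groups. Without replicate 2, it called Trem2 and Gpnmb with the diets averaged (1.01% of all genes) and 0 members on the control diet (0.659%).

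**Figure D3:**
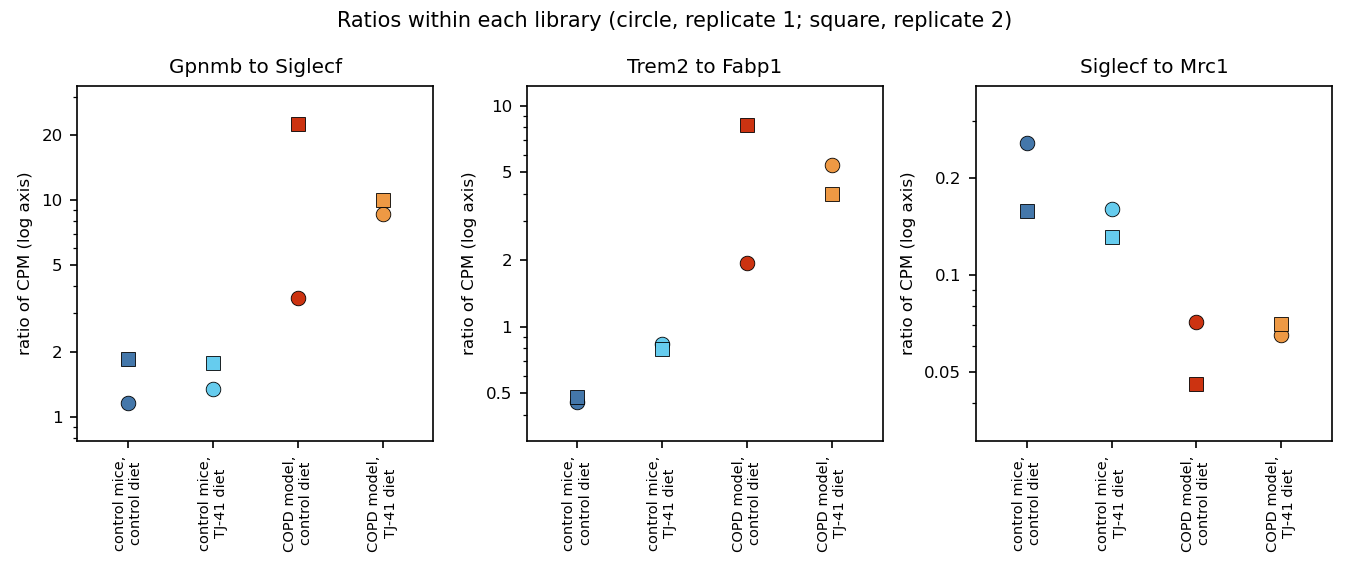
Ratio of the CPM of 2 genes within each library, on a log axis, for Gpnmb to Siglecf, Trem2 to Fabp1 and Siglecf to Mrc1, with circles for replicate 1 and squares for replicate 2. The 4 COPD mice libraries lie above the 4 control mice libraries in the first 2 panels and below them in the third.

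A ratio of 2 genes within a library does not depend on how the library was scaled. Gpnmb to Siglecf ran from 1.16 to 1.85 in control mice and from 3.55 to 22.4 in COPD mice. Trem2 to Fabp1 ran from 0.457 to 0.839 in control mice and from 1.95 to 8.18 in COPD mice. Siglecf to Mrc1, a pair within the alveolar group, ran from 0.131 to 0.257 in control mice and from 0.0458 to 0.0713 in COPD mice. In these 3 ratios the 4 libraries of one kind of mouse lay apart from the 4 of the other. For Gpnmb to Siglecf and for Trem2 to Fabp1 this follows from the levels given above. Gpnmb to Mrc1, at 0.217 to 0.299 in control mice and 0.253 to 1.03 in COPD mice, overlapped.

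Genes that macrophages in general express were used as a second reference. The geometric mean of 8 of them (Csf1r, Adgre1, Cd68, Itgam, Lyz2, Mertk, Fcgr1 and Cd14) was 58.0 to 72.5 CPM in control mice and 67.5 to 79.8 CPM in COPD mice. Of the 8, 0 were called by the quasi-likelihood test of edgeR or by DESeq2. In the test of edgeR 2 had an unadjusted p under 0.05, against 10.4% of all genes. Relative to that geometric mean, Siglecf and Fabp1 lay below all control libraries in all COPD libraries, by 1.43 and 1.36 on the log2 scale of CPM. Chil3 and Trem2 lay above all control libraries, by 1.10 and 1.44. Gpnmb and Ctsk were higher by 1.16 and 0.90 on this scale, but replicate 1 of COPD mice fed the control diet then fell within the range of control mice.

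The TJ-41 diet was compared with the control diet in each kind of mouse. In control mice the quasi-likelihood test of edgeR called 0 members and 0 of all genes (0%), and no member reached an unadjusted p under 0.05, against 1.64% of all genes. DESeq2 and edgeR's exact test called 0 members too, and 0.0487% and 0.0292% of all genes. Marco and Fabp1 differed most, at log2 fold changes of -1.996 ± 0.913 (SE, unadjusted p = 0.0562) and -0.92 ± 0.44 (SE, unadjusted p = 0.0655), both with an adjusted p of 0.996 in the quasi-likelihood test of edgeR. For Marco the 2 libraries of the control diet stood at 17.5 and 3.47 CPM.

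In COPD mice the diet comparison called 0 members, and 0.00487% of all genes, in the quasi-likelihood test of edgeR, and DESeq2 and edgeR's exact test called 0 members, and 0.0681% and 0.0292% of all genes. Gpnmb was the single member with an unadjusted p under 0.05, against 4.1% of all genes. It was 1.67-fold higher on the TJ-41 diet, with a log2 fold change of 0.74 ± 0.31 (SE, 2 against 2 libraries, adjusted p = 0.991 in the quasi-likelihood test of edgeR), at 66.4 and 92.3 CPM against 30.7 and 64.3 CPM. Over 16 other settings its log2 fold change ran from 0.30 to 1.37, and it was called in 0 of them. The other 9 members had log2 fold changes between -0.23 and 0.56 with standard errors of 0.25 to 0.85. Without replicate 1 of COPD mice fed the control diet, which leaves 1 library against 2 and takes the spread from the other groups, the same test of edgeR called 3.41% of all genes, Siglecf and Mrc1 among them at log2 fold changes of 1.56 and 1.00 and adjusted p of 0.0279 and 0.0108.

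Averaged over the 2 kinds of mice, the diet comparison called 0 members and 0 of all genes (0%) in the quasi-likelihood test of edgeR, with no member and 2.48% of all genes at an unadjusted p under 0.05, and DESeq2 called 0 members and 0.0243% of all genes. The difference of the COPD effect between the diets was called for 0 members and 0 of all genes (0%) by the quasi-likelihood test of edgeR, and for 0 members and 0.0827% of all genes by DESeq2. Gpnmb was the single member with an unadjusted p under 0.05 for it, against 3.27% of all genes, at a log2 difference of 1.00 ± 0.44 (SE, unadjusted p = 0.0477, adjusted p = 0.999 from edgeR). For Siglecf and Fabp1 the COPD effect was smaller in size on the TJ-41 diet by 0.92 ± 0.62 and 0.94 ± 0.64 (SE) on the log2 scale, which did not pass the test at an unadjusted p of 0.172 and 0.175 in the quasi-likelihood test of edgeR.

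**Figure D4:**
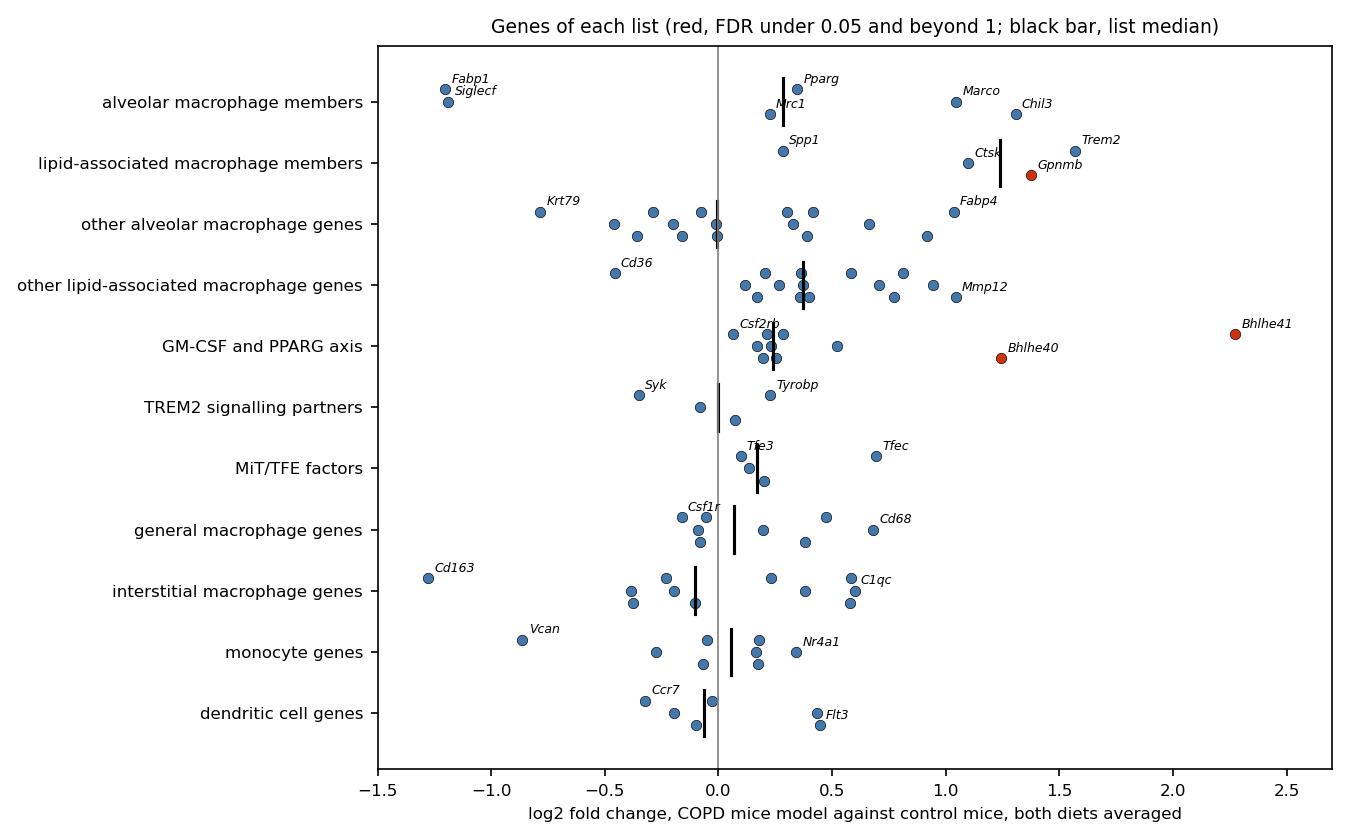
Log2 fold change of single genes, COPD against control mice with the diets averaged, for the members and for lists of other macrophage genes, with a black bar at the median of each list and called genes in red. Gpnmb, Bhlhe40 and Bhlhe41 are the called genes, and the lipid-associated members have the highest median, at 1.24.

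Other genes of the same cells were read from lists. Of 16 other alveolar macrophage genes, 0 were called in the quasi-likelihood test of edgeR with the diets averaged, against 0.443% of all genes. DESeq2 called 1 (Fabp4), against 1.21% of all genes. At an unadjusted p under 0.05 in the test of edgeR, 5 were higher and 1 lower, against 10.4% of all genes. Their median log2 fold change was -0.0083. The kinds of mice did not overlap for 3 of the 16 (18.8%), all higher, against 6.78% of all genes, 3.35% higher. The highest were Fabp4, a fatty acid-binding protein that fat cells also make, at 1.03 ± 0.28 (SE), and the zinc transporter gene Slc39a2 at 0.92 ± 0.23 (SE). The lowest were the keratin gene Krt79 at -0.79 ± 0.20 (SE) and Ear1, an eosinophil-type ribonuclease, at -0.46 ± 0.29 (SE). Krt79 stood at 11.02 to 20.53 CPM in control mice and at 7.68 to 11.6 CPM in COPD mice, and thus lay on the same side as Siglecf and Fabp1 with a small overlap.

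Of 15 other lipid-associated macrophage genes, 14 had a log2 fold change above 0, where 49.8% of all genes did. The quasi-likelihood test of edgeR called 0 of them and DESeq2 1 (Mmp12), against 0.443% and 1.21% of all genes. At an unadjusted p under 0.05 in the test of edgeR, 7 were higher and 1 lower, against 10.4% of all genes. Their median log2 fold change was 0.37. The highest were Mmp12, the macrophage elastase, at 1.04 ± 0.24 (SE), and Ctsd, the lysosomal protease cathepsin D, at 0.95 ± 0.22 (SE). The lowest were the fatty acid receptor gene Cd36, which lung capillary cells also express, at -0.46 ± 0.17 (SE), and the lysosomal protease gene Lgmn at 0.12 ± 0.12 (SE). Mmp12 stood at 6.64 to 10.03 CPM in control mice and at 13.03 to 26.27 CPM in COPD mice, without overlap, and its adjusted p was 0.125 (the quasi-likelihood test of edgeR).

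Of 10 genes of the GM-CSF and PPARγ axis, 2 were called in the quasi-likelihood test of edgeR with the diets averaged, against 0.443% of all genes. Bhlhe41 and Bhlhe40 encode transcriptional repressors that alveolar macrophages need for their identity and self-renewal and that are also part of the circadian clock. Bhlhe41 rose from 8.87 to 9.62 CPM in control mice to 38.6 to 47.9 CPM in COPD mice, a log2 fold change of 2.27 ± 0.12 (SE, adjusted p = 0.000118 from the quasi-likelihood test of edgeR). Bhlhe40 rose from 58.9 to 83.9 CPM to 146 to 203 CPM, a log2 fold change of 1.25 ± 0.14 (SE, adjusted p = 0.00578 from the quasi-likelihood test of edgeR). The other 8 had log2 fold changes of 0.06 to 0.52, among them the GM-CSF gene Csf2 at 0.21 ± 0.22 (SE), its receptor gene Csf2ra at 0.23 ± 0.15 (SE) and Spi1 at 0.25 ± 0.13 (SE). Of 11 other clock genes, 8 were called, 6 higher and 2 lower, against the same 0.443% of all genes. Their summed level was 603 to 815 CPM in control mice and 1641 to 1696 CPM in COPD mice. The part of clock genes in the levels of the macrophage genes was not tested.

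The partners and candidate regulators of the lipid-associated genes had log2 fold changes of smaller size than Trem2 and Gpnmb, a difference that was not tested. Among 4 TREM2 signalling partners 0 were called by edgeR or DESeq2, the adaptor gene Tyrobp was at 0.23 ± 0.20 (SE) on the log2 scale, and Syk, the kinase downstream of it, was at -0.35 ± 0.12 (SE). Syk stood at 104 to 126 CPM in control mice and at 73.9 to 98.8 CPM in COPD mice, without overlap, at an adjusted p of 0.317 in the quasi-likelihood test of edgeR. Among 4 MiT/TFE factors 0 were called by edgeR or DESeq2, and log2 fold changes were 0.10 for Tfe3, 0.14 for Mitf, 0.20 for Tfeb and 0.69 ± 0.18 (SE) for Tfec, the member of the family restricted to macrophages. At an unadjusted p under 0.05, the quasi-likelihood test of edgeR gave 1 gene in each of these lists, Syk and Tfec, against 10.4% of all genes.

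Lists of other cells that share these genes were read for the same libraries. Of 11 interstitial macrophage genes, 8 monocyte genes and 6 dendritic cell genes, 0 were called by the quasi-likelihood test of edgeR. DESeq2 called 1, the interstitial gene Cd163. At an unadjusted p under 0.05 in the test of edgeR there were 4, 1 and 2 genes, against 10.4% of all genes. The 4 interstitial genes were 3 higher and 1 lower, the monocyte gene was lower and the 2 dendritic cell genes were higher. The summed levels of these lists overlapped between control mice and COPD mice, at 486 to 643 against 402 to 673 CPM, 1048 to 1320 against 1260 to 1534 CPM and 148 to 183 against 150 to 175 CPM. Of the interstitial sum, Lyve1 made up 192 to 367 CPM in control mice and 139 to 359 CPM in COPD mice. Of the monocyte sum, Ace, which lung capillary cells also express, made up 680 to 1201 CPM. The neutrophil list overlapped too, at 185 to 285 against 98.9 to 384 CPM, with 0 of the 9 genes tested called by edgeR or DESeq2 and 0 at an unadjusted p under 0.05.

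Among cells outside the blood lineage, fibroblast genes, which matter for Ctsk, summed to 1756 to 2929 CPM in control mice and 1470 to 2784 CPM in COPD mice. Adipocyte genes, which matter for Pparg and Fabp4, summed to 72.3 to 110 CPM and 93.5 to 134 CPM, with 3 of 7 higher at an unadjusted p under 0.05 and 0 called in the quasi-likelihood test of edgeR (1, Cfd, by DESeq2). Melanocyte genes, which matter for Gpnmb, summed to 2.75 to 3.58 CPM and 3.02 to 7.27 CPM, and their defining genes Tyr and Dct were at or under 0.154 CPM in every library. The other members of that list were Pmel, at 1.31 to 2.30 CPM in control mice and 1.41 to 1.88 CPM in COPD mice, and Mlana, at 0.570 to 1.67 CPM and 1.61 to 5.53 CPM with a log2 fold change of 1.23 ± 0.45 (SE, adjusted p = 0.379 from the quasi-likelihood test of edgeR). Lymphatic endothelial genes, which matter for Mrc1, summed to 216 to 273 CPM and 259 to 344 CPM, with 3 of 5 higher at an unadjusted p under 0.05, a median log2 fold change of 0.56 and 0 called in the quasi-likelihood test of edgeR or by DESeq2. The sums for type II alveolar cells, for type I alveolar and club cells and for heart muscle overlapped as well. For heart muscle they were 373 to 450 against 476 to 626 CPM on the control diet. On the TJ-41 diet they were 325 to 491 against 232 to 282 CPM. In COPD mice all 6 heart genes were lower on TJ-41 at an unadjusted p under 0.05, against 4.1% of all genes. With the diets averaged, the quasi-likelihood test of edgeR called 0 genes of these 7 lists and of the list of liver and gut genes. It put 0 to 3 genes a list at an unadjusted p under 0.05, against 10.4% of all genes. The part of these cells in the values of the members was not tested.

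Among the 3 eosinophil genes tested, Prg2, which encodes the granule major basic protein, was called, against 0.443% of all genes. It stood at 0.156 to 1.18 CPM in control mice and 1.43 to 9.33 CPM in COPD mice, a log2 fold change of 3.54 ± 0.61 (SE, adjusted p = 0.0492 from the quasi-likelihood test of edgeR). The call was kept in 7 of 14 other settings, with log2 fold changes of 2.59 to 3.94 over all 14. Il5ra and Ccr3, receptors of the same cells, had log2 fold changes of -0.37 ± 0.37 and 0.23 ± 0.77 (SE).

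For each member, the gene with the most similar profile over the 8 libraries was the one with the smallest root mean square difference of centred log2(CPM + 1) among 18057 genes whose mean CPM was at least 1. These were Wfdc17 for Gpnmb (0.189), Itih4 for Trem2 (0.182), Cfd for Ctsk (0.139), Myrip for Spp1 (0.123), Gm6522 for Chil3 (0.181), Gad1-ps for Siglecf (0.307), Vstm2a for Fabp1 (0.228), Mt1 for Marco (0.569), Mpeg1 for Pparg (0.0614) and Cd33 for Mrc1 (0.0948). Gm6522 shares sequence with Chil3, and the part of shared reads in their likeness was not tested. Among all the genes compared Fabp1 ranked 2 in likeness to Siglecf, and Siglecf ranked 5 for Fabp1. Chil3 ranked 2 for Trem2 and 4 for Ctsk, and Ctsk ranked 4 for Gpnmb and 4 for Chil3. Pparg and Mrc1 were each within the nearest 1% (180 genes) of the other, and Marco and Spp1 had no member that near.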

How the data were processed

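Whole mouse lung RNA was sequenced in 8 libraries, with 2 per group and 4 groups, and groups and replicate numbers were taken from the deposited sample labels, which give the diet as TJ41 and as TJ4 (both read as TJ-41). The authors deposited raw read counts per Ensembl gene on mm10, not normalized. The submitters' processing notes name HISAT2 and edgeR, the methods of the study name CLC Genomics Workbench, and the counter, annotation release, strand setting and treatment of reads with several matches are not given in the sources used here. Gene names and coordinates were taken from GENCODE M21, which held 52489 of the 52636 identifiers, and promoters from RefSeq (GRCm38.p6), which matched 10 members with 13 promoters. The members and lists were chosen with earlier results of these data known.

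The counts were tested with edgeR (version 4.0.16, R version 4.3.3): filterByExpr (minimum count 10, minimum total 15), TMM factors, and the quasi-likelihood test on 4 group means with 4 residual degrees of freedom and a common biological coefficient of variation of 0.208. Benjamini-Hochberg adjustment ran over all 20546 genes tested, and genes were called when the adjusted p was under 0.05 and the log2 fold change beyond 1. The SE was the log2 fold change over the square root of F. Libraries held 18767295 to 20888042 counts. Alternatives were DESeq2 1.42.0, edgeR's exact test, library size alone, relative log expression factors, a filter of at least 1 count in total, a filter of a mean CPM of at least 1, the groups compared alone, the false discovery rate alone, a replicate block, and each library left out. Steps were tested on simulated data with known changes. Named genes were all members, the nearest profile of each, called genes of the other lists, and the 2 highest and 2 lowest of the lists of other alveolar and other lipid-associated macrophage genes, with values of the GM-CSF axis, TREM2 partners and MiT/TFE factors. Of the lists of other cells, the rule named the most abundant gene and any gene at 0. Alb, Epx, Il5ra, Ccr3, Tyr, Dct, Mlana, Pmel, Chil4 and Gm42793 were named after their values were seen.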

Additional observations from a re-analysis of the deposited data

How the results depend on the processing

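With the diets averaged, 1 member (Gpnmb) was called in the comparison of COPD mice with control mice, also under relative log expression factors, library size alone, a mean of at least 1 CPM and the replicate block, and 6 were called by DESeq2 and 6 with a filter of at least 1 count. Leaving out each library gave 0 to 6 calls. On the control diet, where the main count was 0, there were 3 calls with DESeq2, 2 with the exact test, 1 with a filter of at least 1 count, and 0 to 6 with a library left out. On the TJ-41 diet, where it was also 0, there were 4, 3 and 2 calls in the same order, 5 with the groups compared alone, and 0 to 4 with a library left out. For TJ-41 in COPD mice, leaving out a library gave 0 to 2 calls against 0. The other diet counts and that of the difference were 0 in all settings run. The cause of these changes was not tested. Over all genes, calls with the diets averaged numbered 91, and 249 with DESeq2, 278 with a filter of at least 1 count, 15 to 873 with a library left out. On the control diet they numbered 25, and 174 with DESeq2, 210 with the exact test, 147 with a filter of at least 1 count and 3 to 1343 with a library left out. On the TJ-41 diet they numbered 16, and 125, 137, 89 and 2 to 168 in the same order and 248 with the groups compared alone, and for TJ-41 in COPD mice 1, and 0 to 728 with a library left out. The highest of these numbers over the comparisons on the control diet, averaged and of TJ-41 in COPD mice came without replicate 1 of COPD mice fed the control diet.

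Libraries with the same replicate number did not deviate together (correlations of replicate differences from -0.234 to 0.108), and the replicate block left every count of called members at 0 or, with the diets averaged, at 1, and turned Marco on the control diet to -0.14 on the log2 scale. Directions also turned in some fits without 1 library. For COPD against control mice, both fed the control diet, the log2 fold change then ran from -1.52 to 1.76 for Marco, -0.27 to 0.41 for Pparg and -0.49 to 0.47 for Mrc1. It ran from -0.13 to 0.53 for Spp1 on the TJ-41 diet and from -0.050 to 0.43 for Mrc1 with the diets averaged. For the diet in control mice it ran from -0.089 to 0.24 for Chil3, -0.62 to 0.33 for Trem2, -0.10 to 0.55 for Spp1 and -0.49 to 0.045 for Ctsk. For the diet in COPD mice it ran from -0.029 to 1.56 for Siglecf, -1.20 to 1.46 for Marco, -0.39 to 0.76 for Chil3, -0.45 to 0.72 for Fabp1, -0.10 to 0.80 for Trem2, -0.27 to 0.39 for Spp1 and -0.24 to 0.85 for Ctsk. Siglecf, Fabp1, Chil3, Trem2, Gpnmb and Ctsk kept their direction in the COPD comparison on each diet and averaged, in all settings run. The members with the fewest reads, Trem2, Siglecf, Fabp1 and Marco, held 34 to 416 reads a library, and the effect of depth on them was not tested.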

Other observations

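Some single genes near these macrophage states, picked after their values were seen, separated COPD mice from control mice without being called in the quasi-likelihood test of edgeR. Of them, DESeq2 called Cd163. Cd163, the haemoglobin scavenger receptor of interstitial macrophages, stood at 8.41 to 11.4 CPM in control mice and at 2.10 to 5.73 CPM in COPD mice, a log2 fold change of -1.28 ± 0.29 (SE, 4 against 4 libraries, adjusted p = 0.121 from the quasi-likelihood test of edgeR). Acp5, which encodes a lysosomal acid phosphatase of macrophages and osteoclasts and like Ctsk serves bone resorption in the osteoclast, stood at 14.6 to 17.7 CPM in control mice and at 20.8 to 30.3 CPM in COPD mice, a log2 fold change of 0.77 ± 0.14 (SE, adjusted p = 0.0512 from the same test of edgeR). Atp6v0d2, a subunit of the lysosomal proton pump that is found in alveolar macrophages and osteoclasts, stood at 39.4 to 55.9 CPM in control mice and at 58.2 to 94.8 CPM in COPD mice, a log2 fold change of 0.66 ± 0.14 (SE, adjusted p = 0.0996 from the same test of edgeR). These 3 genes were picked with this separation seen. Libraries of the 2 kinds of mice did not overlap for 6.78% of all genes tested, and other listed genes such as Mmp12 separated as well.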
